A study of Danio rerio with 12 samples.

Results

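Zebrafish (Danio rerio) embryos take up ions from fresh water, and shed acid and ammonia into it, through ionocytes, mitochondria-rich cells scattered in the skin. The genes described here are transporters, enzymes, fate factors and a hormone of that system, chosen by symbol: rhcga, rhcgb, atp1a1a.3, foxi3a, trpv6, gcm2, slc12a10.2, ca2, ca15a and pth1a. They, and the lists of other genes used below, were chosen with earlier results of these data known. Of these 10 genes, 9 were matched to probes of the array through RefSeq accessions, out of 12858 genes with a symbol on it. rhcgb was not matched and is not analysed here. The 9 genes are covered by 18 probes, with 4 for ca2, 3 for rhcga, 2 each for trpv6, gcm2, slc12a10.2 and pth1a, and 1 each for the others. The second probe of pth1a was too dim to be tested.

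RNA came from whole AB wild-type embryos kept at 28.5 °C in E3 medium, a dilute salt solution with sodium chloride at 5 mM, potassium chloride at 0.17 mM, and magnesium sulphate and a calcium salt at 0.33 mM each. Embryos of 24 or 72 hours post fertilisation (hpf) were exposed for 3 h either to 25 µM beclomethasone, a synthetic glucocorticoid that activates the glucocorticoid receptor, or to 0.1% DMSO, its solvent. This makes 4 groups of 3 one-colour arrays, without a group that received neither agent. The labels speak of triplicate experiments and name no clutch. Each p-value therefore covers the spread between these 3 arrays per group, pooled over the 4 groups, and that spread may be technical.

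Zebrafish ionocytes are commonly sorted into types by what they carry. HR cells are rich in the proton pump (the vacuolar H-ATPase) and couple acid and ammonia excretion to sodium uptake, with carbonic anhydrases supplying protons and bicarbonate. NaR cells are rich in the sodium pump (the Na,K-ATPase) and take up calcium through the epithelial channel encoded by trpv6, and NCC cells take up sodium and chloride through a thiazide-sensitive cotransporter. The forkhead factor foxi3a directs epidermal precursors to the ionocyte fate, and gcm2 is needed for HR cells. Cortisol is the main corticosteroid of fish and acts on these cells through the glucocorticoid receptor.

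Values are processed spot intensities scaled so that each array's 75th percentile is 100, called normalised signal below. A change is a difference of group means on the log2 scale with the standard error (SE) of a limma fit on all 12 arrays, and a call is a Benjamini-Hochberg adjusted p below 0.05 over 25166 genes and unnamed probes. Where a gene has several probes, the brightest stands for it, and levels of different probes are not compared. On 11 arrays, 31210 to 37401 of 43803 non-control spots were well above background, against 16764 on 24 hpf DMSO replicate 3, and no spot was saturated (0 on each array). On that array every gene of the set except ca2 was not well above background, and its low values are a floor rather than a level: the lowest intensity it records was 42.8 scanner units, where the 11 others went down to between 2.36 and 3.89. Stage labels were checked with marker genes: in DMSO, 15 of 15 measured genes of 72 hpf tissues were called higher and 9 of 11 genes of the 24 hpf embryo lower at 72 hpf, with 1 of the 11 higher. The deposited log2 table carries treatment labels opposite to those of the scanner arrays: each of its 12 columns matched best an array of equal stage and number but opposite treatment (r of 0.988 to 0.997 over 13879 probes, against 0.658 to 0.827 for the array of its own label). Every sign below follows the scanner arrays, and every treatment call of these genes has the opposite sign in the deposited table as labelled. Which of these labels are right was not settled here.

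After 3 h of beclomethasone, atp1a1a.3 and foxi3a were higher and pth1a was lower in embryos of 24 hpf, and rhcga and atp1a1a.3 were higher and pth1a was lower in embryos of 72 hpf. The rise of rhcga at 72 hpf was 30.0-fold, the third highest log2 change of all 25166 features tested. trpv6, gcm2, slc12a10.2, ca2 and ca15a did not pass the test in either comparison. At 24 hpf, 3 of 9 genes were called, where 19.2% of all features were called in either direction, 9.05% higher and the rest, 2551 of 25166, lower. At 72 hpf, 2 of 9 were called higher and 1 lower, beside 4.80% and 5.44% of all features. The median log2 change of the 9 genes was 0.11 at 24 hpf and -0.05 at 72 hpf, against -0.12 and 0.00 over all features. The median over all features at 24 hpf was -0.20 with median centring and 0.00 with quantile normalization. The spread was pooled over unlike groups: replicates correlated at 0.931 to 0.993 in DMSO at 24 hpf and at 0.987 or more in each other group. Fitted on only the 24 hpf arrays, 1311 features were called instead of 4829. The 3 calls of the 9 genes were kept there, but 10 of 27 calls of the list genes named below were lost. In RNA from whole embryos, fewer cells of a type and less RNA per cell cannot be told apart. Markers of 2 other cell populations were summed beside these results. Over 21 keratinocyte genes, the normalised signal was 186958 to 198605 in DMSO and 208537 to 230366 in beclomethasone at 24 hpf, and 192362 to 196477 against 191711 to 206533 at 72 hpf. Over 19 genes of the pronephros, the embryonic kidney, which shares many transporters with ionocytes, it was 835 to 974 against 975 to 998 at 24 hpf and 1261 to 1341 against 1378 to 1410 at 72 hpf. These sums are plain totals, so bright genes and large changes weigh most in them. The mean of the keratin gene krt17 alone went from 9932 to 20668 at 24 hpf. That of the pronephros gene slc20a1a went from 34.7 to 120 at 72 hpf. Of the 21 keratinocyte genes, 8 were called higher and 3 lower at 24 hpf, and of the 19 pronephros genes 1 higher and 1 lower at 72 hpf. The part of these populations in the results was not tested.

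**Figure D1:**
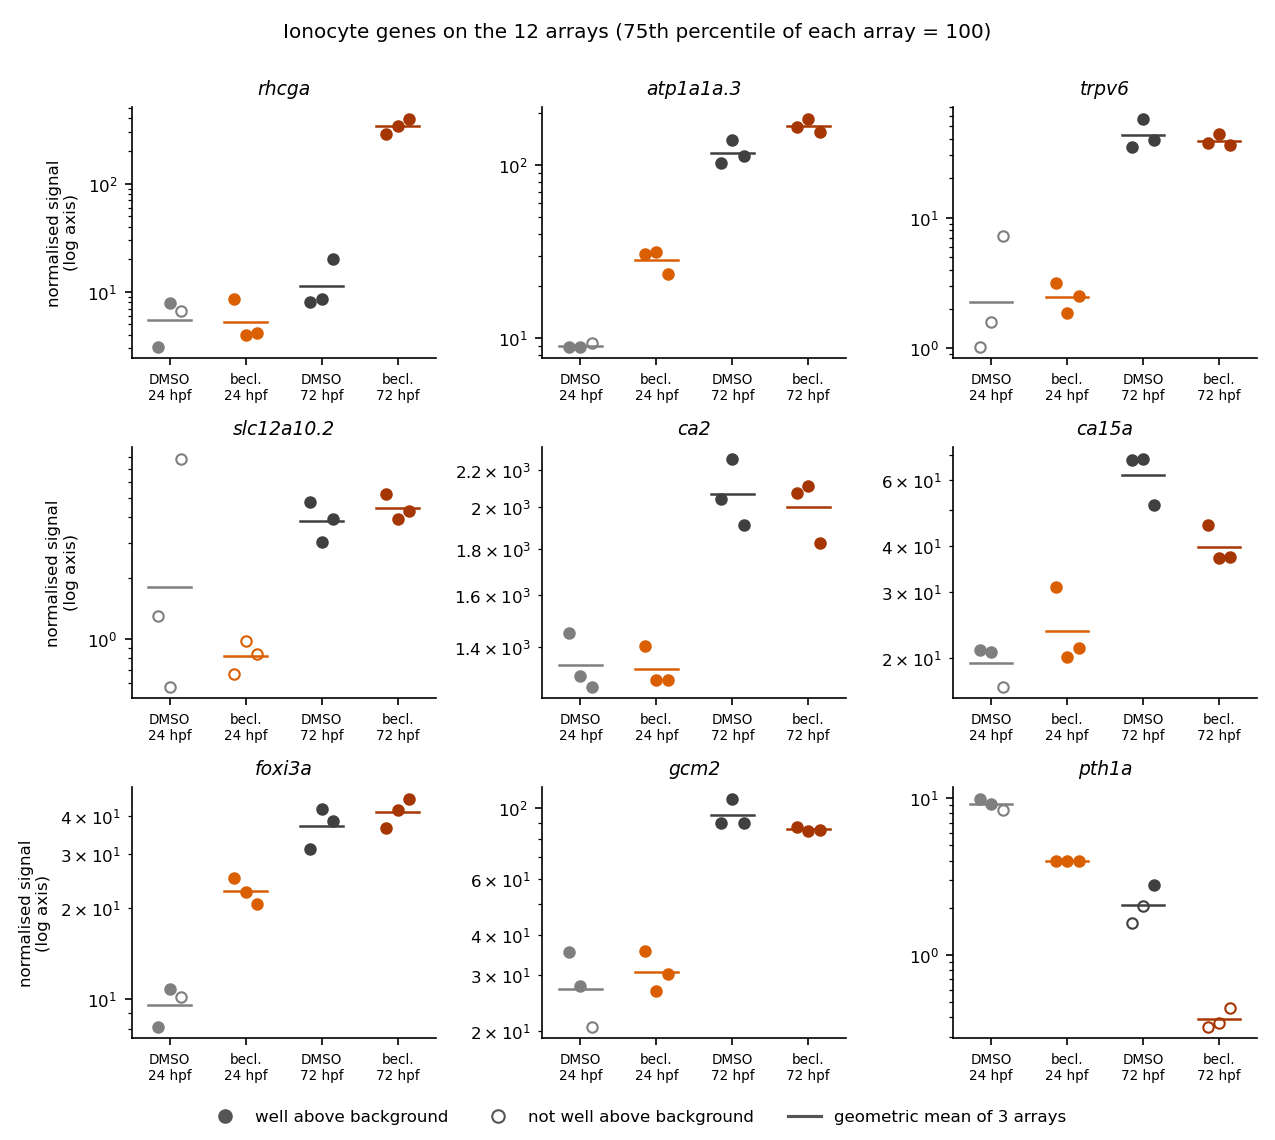
Normalised signal (log axis, 75th percentile of each array = 100) of the 9 ionocyte genes on the 12 arrays, 3 per group, with the geometric mean as a line. Open points were not well above background. The 3 rhcga values in beclomethasone at 72 hpf, 286 to 398, lie far above the other 9, and pth1a is at or near background in the 72 hpf groups.

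**Figure D2:**
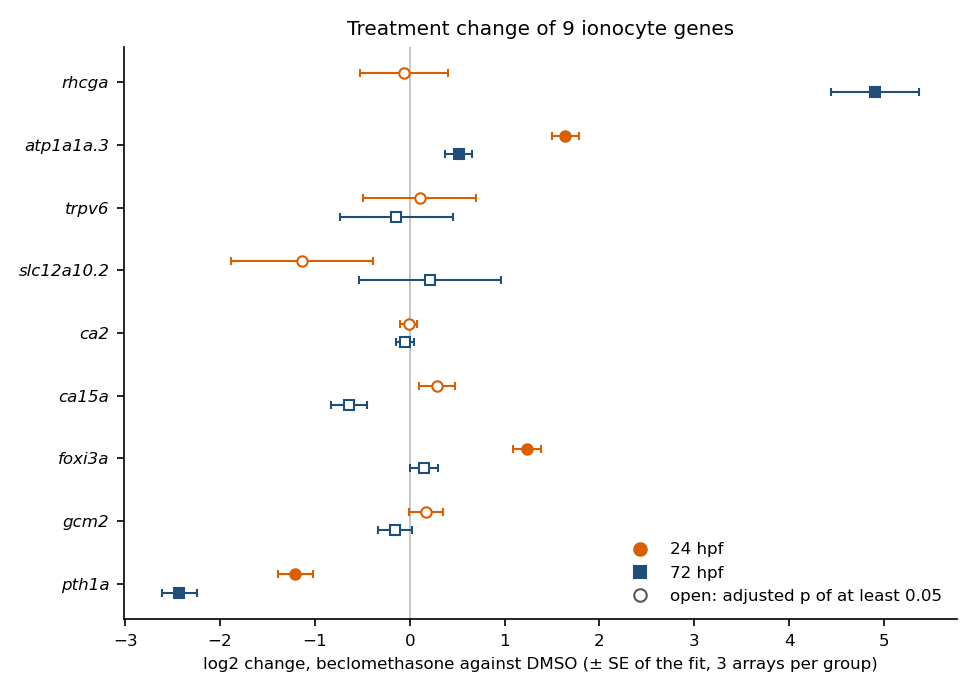
Log2 change (horizontal axis, ± SE of the fit, 3 arrays per group) of the 9 genes in beclomethasone against DMSO at 24 hpf (circles) and 72 hpf (squares), filled where the adjusted p is below 0.05. The point of rhcga at 72 hpf is at 4.91, and the wide bars of trpv6 and slc12a10.2 belong to genes near background at 24 hpf. The 72 hpf point of pth1a is a fitted value on treated arrays at background, and no size is given for that fall.

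rhcga encodes an ammonia channel of the Rh family, whose members let ammonia cross the membranes of gill and skin. In embryos of 24 hpf its normalised signal was 3.11, 7.81 and 6.72 in DMSO, the last not well above background, and 8.55, 4.03 and 4.15 in beclomethasone, so the groups overlapped. The 72 hpf DMSO arrays gave 8.10, 8.64 and 20.3, and the 72 hpf beclomethasone arrays 286, 338 and 398. The lowest treated array at 72 hpf was therefore far above the highest DMSO array, and the high DMSO value belongs to replicate 3. The log2 change was 4.91 ± 0.46 at 72 hpf (limma, adjusted p = 1.59e-04) and -0.06 ± 0.46 at 24 hpf (adjusted p = 0.934). The other 2 rhcga probes are dimmer and were well above background on all arrays of the treated 72 hpf group alone, which is how they entered the fit, so they add no independent support. They gave 23.5, 27.1 and 21.4, and 18.01, 21.5 and 36.0, on those arrays, and each was well above background on 1 of the 3 DMSO arrays of 72 hpf, replicate 3 in both cases. The arrays sat on 3 slides, and the 3 treated 72 hpf arrays shared theirs with 72 hpf DMSO replicate 3 only. Against that array alone, which is the within-slide estimate, rhcga was higher by 4.06 on the log2 scale (adjusted p = 0.00554). Each within-slide estimate given here sets 1 array against 3, and its p takes the spread from all groups and assumes that the lone array varies like the others. The rise of rhcga kept its call without any single 72 hpf array, between 4.67 and 5.33.

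**Figure D3:**
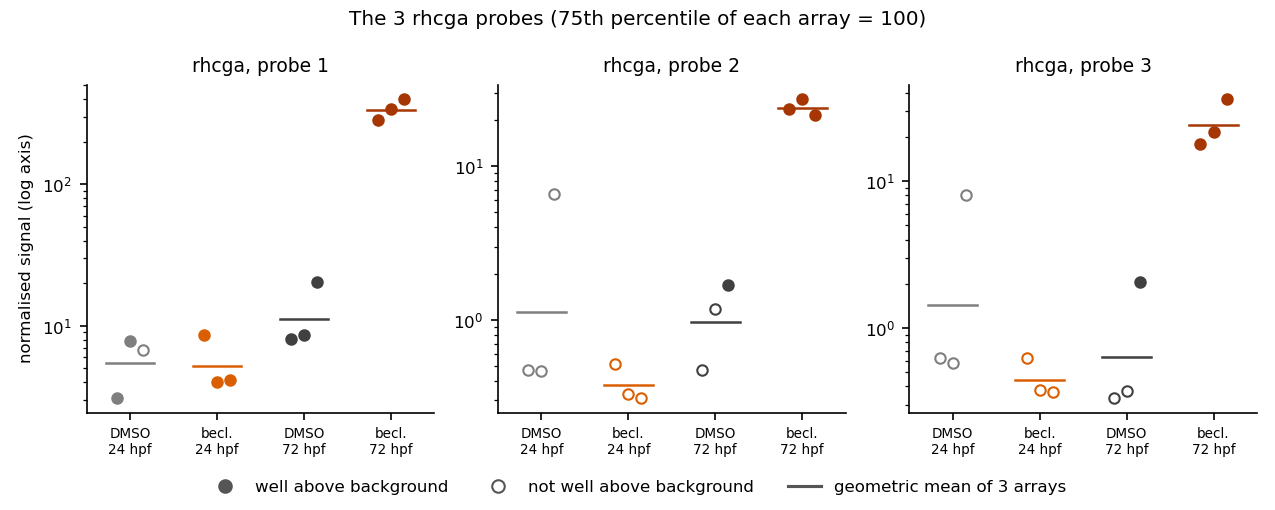
Normalised signal (log axis) of the 3 rhcga probes on the 12 arrays, 3 per group, with the geometric mean as a line and open points for spots not well above background. The 3 beclomethasone arrays of 72 hpf are above the 9 others on each probe, but probes 2 and 3 were tested only because those 3 arrays were well above background. The open point that stands high among the 24 hpf values is DMSO replicate 3, whose floor is high.

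Other Rh genes were on the array as well. rhd, a relative of the ammonia channels, fell by 0.58 ± 0.11 on the log2 scale at 24 hpf (adjusted p = 0.00902), from a mean normalised signal of 83.6 to 56.2, and its within-slide adjusted p was 0.0754. rhag and rhbg, which encode Rh ammonia channels, changed by 0.24 (adjusted p = 0.117) and -0.09 at 24 hpf and by 0.14 (adjusted p = 0.497) and 0.22 at 72 hpf and were not called. rhcgl1 had a mean normalised signal of 10.4 in DMSO and 35.7 in beclomethasone at 72 hpf, a log2 change of 1.86 ± 0.82 that did not pass the test (adjusted p = 0.225). That SE also takes in the 24 hpf arrays, none of which had rhcgl1 well above background. The test therefore does not decide whether rhcgl1 changed at 72 hpf. Without single 72 hpf arrays the change was 1.51 to 2.15. A list drawn up for HR cells by gene family had 10 tested genes, and expression in those cells was not tested. Of the 10, rhd was the 1 called at 24 hpf, and at 72 hpf 1 was called, slc4a2a, an anion exchanger. Of all features, 19.2% were called at 24 hpf and 4.80% were higher at 72 hpf. slc4a2a was higher by 0.36 ± 0.10 (adjusted p = 0.0487, and 0.139 with replicates of the same number paired), and the call was lost without any 1 of the 6 arrays (adjusted p of 0.0624 to 0.167) and within the slide (adjusted p = 0.505). The median log2 change of the 10 genes was -0.19 at 24 hpf and 0.05 at 72 hpf.

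atp1a1a.3 encodes a catalytic alpha subunit of the Na,K-ATPase, the pump that drives ion uptake across ionocytes. At 24 hpf its normalised signal was 8.93, 8.96 and 9.37 in DMSO, the last value not well above background, and 30.7, 31.5 and 23.4 in beclomethasone. The treated arrays were all above the DMSO arrays. The rise was 3.11-fold, 1.64 ± 0.14 on the log2 scale (adjusted p = 1.53e-04), and it was 1.66 without DMSO replicate 3 and 1.76 within the slide that held beclomethasone replicate 1 and the 3 DMSO arrays (adjusted p = 0.0113). With normexp background correction it was 0.94 (adjusted p = 4.74e-04). In embryos of 72 hpf the DMSO arrays gave 103, 139 and 113 and the treated arrays 165, 185 and 155, again without overlap. The change of 0.52 ± 0.14, or 1.43-fold, was just past the threshold (adjusted p = 0.0473). It was not past it with replicates of the same number paired (adjusted p = 0.0692), within the slide (log2 change 0.57, adjusted p = 0.290), with median centring (adjusted p = 0.0842), with quantile normalization (adjusted p = 0.0573), or without any 1 of the arrays other than DMSO replicate 2 (log2 changes of 0.42 to 0.57, adjusted p of 0.0819 to 0.179).

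atp1a1a.3 lies in a row of alpha subunit genes, after atp1a1a.1 and atp1a1a.2 and before atp1a1a.5 in the gene order of the RefSeq assembly GRCz12tu, and cross-hybridisation between these copies was not tested. Of 17 other sodium pump subunit genes tested, 6 were called higher at 24 hpf and 4 at 72 hpf, and limma called 0 lower at either stage (1 and 0 at an unadjusted p below 0.05), beside the background shares given above. The highest changes at 24 hpf among them were those of atp1a1a.1 at 0.99 ± 0.17 (adjusted p = 0.00465), atp1a1a.4 at 0.86 ± 0.08 (adjusted p = 2.01e-04) and atp1a1a.2 at 0.81 ± 0.13 (adjusted p = 0.00412), all log2. The mean normalised signal of atp1a1a.1 went from 90.7 to 177 and that of atp1a1a.4 from 218 to 397. All 3 are alpha subunits like atp1a1a.3, and none of the 3 was called at 72 hpf, where their log2 changes were 0.27, 0.17 and -0.11. The beta subunit gene atp1b1a rose by 0.58 ± 0.08 at 24 hpf (adjusted p = 0.00221) and by 0.73 ± 0.08 at 72 hpf (adjusted p = 4.95e-04). Within slides at 24 hpf, the adjusted p was 0.0715 for atp1a1a.1 and 0.0717 for atp1b1a. The median log2 change of the 17 genes was 0.17 at 24 hpf and 0.20 at 72 hpf.

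**Figure D4:**
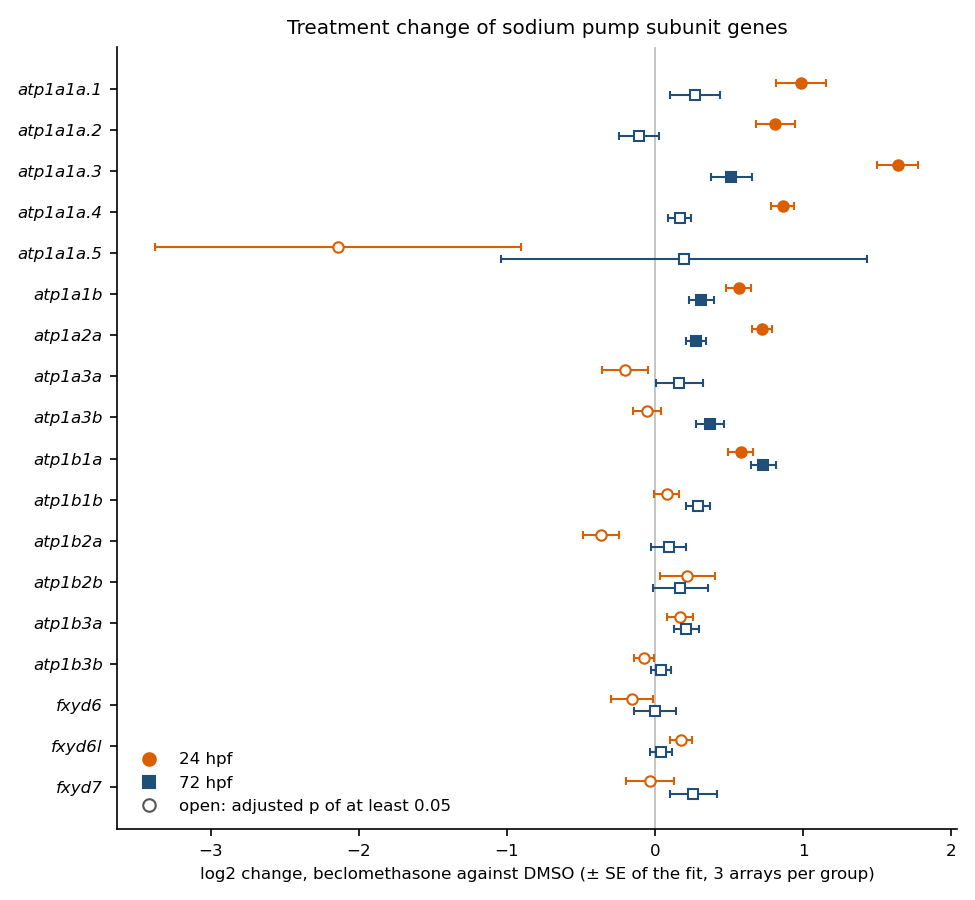
Log2 change (horizontal axis, ± SE of the fit, 3 arrays per group) of atp1a1a.3 and 17 other sodium pump subunit genes in beclomethasone against DMSO at 24 hpf (circles) and 72 hpf (squares), filled where the adjusted p is below 0.05. The filled points all lie to the right of 0, with atp1a1a.3 at 24 hpf farthest out at 1.64, and the wide bars belong to atp1a1a.5, which was not well above background on any 24 hpf array.

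trpv6 encodes the apical calcium channel of NaR cells. At 24 hpf the DMSO arrays gave normalised signals of 1.03, 1.60 and 7.23, none of them well above background, and the treated arrays 3.16, 1.86 and 2.53, all 3 well above it. The log2 change was 0.11 ± 0.60 (adjusted p = 0.913), and without DMSO replicate 3 it was 0.94 (adjusted p = 0.0383), where both DMSO arrays left were at background. The 72 hpf values were 34.7, 57.3 and 39.5 in DMSO and 37.2, 43.4 and 36.3 in beclomethasone, with full overlap and a log2 change of -0.14 ± 0.60 (adjusted p = 0.968). That SE is pooled over the groups. The standard deviation of the log2 values was 1.48 in DMSO at 24 hpf, against 0.38 in DMSO and 0.14 in beclomethasone at 72 hpf. The dimmer probe gave 5.36 to 8.61 in DMSO and 5.64 to 6.71 in beclomethasone at 72 hpf. No treatment difference of trpv6 was detectable at 72 hpf.

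pth1a encodes a parathyroid hormone, which raises blood calcium. Its normalised signal at 24 hpf was 9.90, 9.19 and 8.39 in DMSO and 3.97, 3.95 and 3.95 in beclomethasone, and each treated array was below each DMSO array, the third of which was not well above background. The fall was 2.31-fold, a log2 change of -1.21 ± 0.18 (adjusted p = 0.00288), and the change was -1.27 without DMSO replicate 3 and -1.20 within the slide (adjusted p = 0.0281). With normexp background correction it was -0.57 (adjusted p = 2.86e-04). Older embryos had the gene near background at 72 hpf: 1.59, 2.06 and 2.78 in DMSO, with only the last well above it, and 0.346, 0.368 and 0.457 in beclomethasone, with none above it. The fit called it lower (adjusted p = 3.96e-05), but since no treated array and 1 of 3 DMSO arrays measured it, no size is given for that fall.

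Calcium handling genes other than these were tested for 24 of a list of 34, and 4 were called higher and 1 lower at 24 hpf, 2 higher and 0 lower at 72 hpf (by limma, with 1 lower at an unadjusted p below 0.05). All features had 9.05% higher and 2551 of 25166 lower at 24 hpf, and 4.80% and 5.44% at 72 hpf, so the calcium counts are near the background. stc1 and stc2a encode stanniocalcins, hormones of which stc1 lowers calcium uptake in fish. stc1 rose by 1.55 ± 0.28 on the log2 scale at 24 hpf (adjusted p = 0.00661), from a mean normalised signal of 4.69 to 12.6, and stc2a by 1.07 ± 0.24 (adjusted p = 0.0155, or 0.0164 to 0.0525 without single arrays). At 72 hpf their changes were 0.58 (adjusted p = 0.278) and 0.45 (adjusted p = 0.338). cyp24a1, the enzyme that inactivates vitamin D, rose by 2.45 ± 0.41 at 72 hpf (adjusted p = 0.00493), from a mean of 97.2 to 484. At 24 hpf its brighter probe changed by 1.25 (adjusted p = 0.0638), while its other probe gave -0.88. pth1b, a second parathyroid hormone gene, rose by 0.87 ± 0.15 at 24 hpf (adjusted p = 0.00444), from 7.23 to 13.2, where pth1a fell, and its log2 change at 72 hpf was 0.05 (adjusted p = 0.942). pth2ra, a parathyroid hormone receptor gene that was well above background on 2 arrays of each 24 hpf group, was called lower at 24 hpf with a log2 change of -1.26 ± 0.30 (adjusted p = 0.0198, or 0.0162 to 0.0712 without single arrays), and quantile normalization turned it to 0.076. Within slides, the adjusted p was 0.114 for stc1 and 0.0709 for pth2ra at 24 hpf and 0.169 for cyp24a1 at 72 hpf.

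slc12a10.2 encodes the sodium chloride cotransporter that gives NCC cells their name. At 24 hpf none of its 6 values was well above background. The 72 hpf DMSO arrays gave 4.76, 3.03 and 3.94 and the treated arrays 5.26, 3.93 and 4.32, which overlap, and the log2 change was 0.22 ± 0.75 (adjusted p = 0.956). That SE is pooled over the groups. The standard deviation of the log2 values was 1.93 in DMSO at 24 hpf, against 0.33 in DMSO and 0.21 in beclomethasone at 72 hpf. The p is thus set largely by arrays that did not measure the gene. On its second probe the values at 72 hpf were 4.64, 5.43 and 5.78 in DMSO and 6.26, 6.38 and 6.71 in beclomethasone, which do not overlap. Its tandem neighbour slc12a10.3 changed by -0.81 at 24 hpf, where no array had it well above background, and by 0.16 at 72 hpf on the log2 scale. It was not called at either stage.

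Among 18 other chloride, potassium and water transport genes tested, 1 was called higher at 24 hpf, beside 9.05% of all features, and 3 were called higher and 2 lower at 72 hpf, where all features had 4.80% higher and 5.44% lower. slc26a5 encodes a member of an anion transporter family. It rose by 0.98 ± 0.08 at 24 hpf (adjusted p = 1.11e-04) and 1.27 ± 0.08 at 72 hpf (adjusted p = 1.32e-05), from mean normalised signals of 87.1 to 172 and of 127 to 307. The water and glycerol channel gene aqp3a rose by 0.66 ± 0.07 at 72 hpf (adjusted p = 3.53e-04). Its 2 probes gave 0.66 and 0.86 at 72 hpf but -0.10 and 0.71 at 24 hpf. Of the potassium channel genes, kcnj1a.2 rose by 0.89 ± 0.21 at 72 hpf (adjusted p = 0.0245), but its 2 probes gave 0.15 and 0.89. kcnj1a.5 changed by -1.17 ± 0.30 (adjusted p = 0.0354), but the probes of kcnj1a.5 ranged from -3.63 to 0.12. The kcnj1a.5 call was lost without any 1 of the 6 arrays (adjusted p of 0.0653 to 0.125), and that of kcnj1a.2 was kept in 2 of the 6 such fits (0.00899 to 0.0940). Within the slide these adjusted p were 0.505 for kcnj1a.2 and 0.167 for kcnj1a.5.

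ca2 encodes a cytosolic carbonic anhydrase. Its brightest probe gave 1451, 1300 and 1264 in DMSO and 1404, 1287 and 1286 in beclomethasone at 24 hpf, and 2045, 2264 and 1914 against 2075, 2111 and 1828 at 72 hpf. The groups overlapped at both stages, with log2 changes of -0.01 ± 0.09 (adjusted p = 0.936) and -0.05 ± 0.09 (adjusted p = 0.883). The probes differed at 24 hpf. One of the 3 dimmer ones gave 70.2, 74.0 and 71.5 in DMSO and 88.1, 91.2 and 85.9 in beclomethasone, a log2 change of 0.30 ± 0.08 (adjusted p = 0.0266 in the fit of every probe by itself). The other two dim probes had log2 changes of 0.36 (adjusted p = 0.0629) and -0.04.

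ca15a encodes a membrane-bound carbonic anhydrase of HR cells. At 24 hpf its normalised signal was 20.9, 20.8 and 16.7 in DMSO and 31.0, 20.1 and 21.2 in beclomethasone, with overlap and a log2 change of 0.29 ± 0.19 (adjusted p = 0.302). In 72 hpf embryos the values were 67.8, 68.4 and 51.3 in DMSO and 45.6, 37.0 and 37.2 in beclomethasone. Each treated array was below each DMSO array, and the log2 change of -0.64 ± 0.19 did not pass the test (adjusted p = 0.0644). It passed with quantile normalization (adjusted p = 0.0467), with normexp (-0.56, adjusted p = 0.0268), with array weights (-0.69, adjusted p = 0.0146) and without DMSO replicate 3 (-0.78, adjusted p = 0.0444). Against the DMSO array on the same slide it was -0.37 (adjusted p = 0.421). Its neighbours ca15b and ca15c were not called in either treatment comparison, with log2 changes of 0.53 and -1.27 at 24 hpf and 1.22 and -0.76 at 72 hpf. The -1.27 and the 1.22 are values near background. ca15c was not well above it on any 24 hpf array, and ca15b was on only 1 array of each 72 hpf group.

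Of 18 vacuolar proton pump subunit genes, 3 were called higher at 24 hpf, beside 9.05% of all features, and 0 in either direction at 72 hpf by limma, with 1 at an unadjusted p below 0.05. One of them, atp6v1aa, is also on the list drawn up for HR cells. atp6v0a1b and atp6v0a1a, both subunits of the membrane sector, rose by 0.91 ± 0.14 (adjusted p = 0.00325) and 0.61 ± 0.09 (adjusted p = 0.00227) on the log2 scale. atp6v1ba changed by 0.19 ± 0.05 (adjusted p = 0.0305), with probes between 0.08 and 0.92, and kept its call in 1 of 6 fits without single arrays (0.0278 to 0.105). None of the 3 calls was past the threshold within the slide, where the adjusted p were 0.0724, 0.0587 and 0.217. The median change of the 18 genes was 0.17 at 24 hpf and -0.03 at 72 hpf.

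foxi3a, the ionocyte fate factor, gave 8.11, 10.8 and 10.14 in DMSO and 25.1, 22.4 and 20.6 in beclomethasone at 24 hpf. All treated arrays were above all DMSO arrays, the third of which was not well above background. The rise was 2.35-fold, 1.24 ± 0.15 on the log2 scale (adjusted p = 9.62e-04), and it was 1.27 without DMSO replicate 3 and 1.38 within the slide (adjusted p = 0.0269). With normexp it was 0.42 (adjusted p = 0.0483). Its 72 hpf values were 31.2, 42.2 and 38.5 in DMSO and 36.5, 41.9 and 45.5 in beclomethasone, with overlap and a log2 change of 0.15 ± 0.15 (adjusted p = 0.677). Other foxi genes were not called: foxi1 changed by 0.63 (adjusted p = 0.0902) and foxi2 by 0.45 (adjusted p = 0.101) at 24 hpf. foxi3b, the other forkhead factor of ionocytes, changed by 0.59 (adjusted p = 0.569), and by 1.55 without DMSO replicate 3 (adjusted p = 0.0153), against DMSO arrays at background.

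gcm2 gave 35.2, 27.5 and 20.5 in DMSO and 35.5, 26.6 and 30.0 in beclomethasone at 24 hpf, the third DMSO value not well above background. At 72 hpf it gave 89.8, 106.8 and 90.0 in DMSO and 87.0, 84.7 and 85.3 in beclomethasone. The 24 hpf groups overlapped, and the 72 hpf treated arrays were a little below all DMSO arrays. The log2 changes were 0.17 ± 0.18 (adjusted p = 0.523) and -0.15 ± 0.18 (adjusted p = 0.760). The second probe had the same order at 72 hpf, with 44.2, 51.2 and 47.9 against 42.3, 40.0 and 38.9.

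A list of regulators held ionocyte fate factors with Notch, grainyhead-like and hypoxia-inducible factor genes, and expression of its genes in ionocytes was not tested. Of its 18 tested genes, 7 were called higher and 3 lower at 24 hpf, and 3 higher and 2 lower at 72 hpf. Of all features, 9.05% were higher and 2551 of 25166 lower at 24 hpf, and 4.80% and 5.44% at 72 hpf. hif1al, which encodes a hypoxia-inducible factor alpha subunit, rose by 0.46 ± 0.08 at 24 hpf (adjusted p = 0.00671) and by 2.01 ± 0.08 at 72 hpf (adjusted p = 1.60e-06), where its mean normalised signal went from 56.0 to 226. grhl2b, a grainyhead-like epithelial factor, rose by 0.60 ± 0.15 (adjusted p = 0.0228, or 0.0172 to 0.0864 without single arrays) and 1.34 ± 0.15 (adjusted p = 4.50e-04). klf4, a Krüppel-like epithelial factor, fell by 0.91 ± 0.17 at 24 hpf (adjusted p = 0.00703) and by 0.91 ± 0.17 at 72 hpf (adjusted p = 0.00783, and 0.0561 with replicates of the same number paired). esrra, an oestrogen-related receptor, fell by 1.13 ± 0.19 at 24 hpf (adjusted p = 0.00465) on a signal that was well above background on 2 arrays of each group, and its log2 change at 72 hpf was 0.04. Within the 24 hpf slide the adjusted p was 0.124 for hif1al, 0.173 for grhl2b and 0.0826 for esrra.

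Hormone, receptor and kinase genes around this system include known glucocorticoid-responsive genes. Of 21 tested, 7 were called higher and 4 lower at 24 hpf, and 5 higher and 0 lower at 72 hpf by limma (1 lower at an unadjusted p below 0.05). Among all features, 9.05% were higher and 2551 of 25166 lower at 24 hpf, and 4.80% higher and 5.44% lower at 72 hpf. hsd11b2, which inactivates cortisol, rose by 3.93 ± 0.12 at 24 hpf (adjusted p = 1.93e-07) and 3.13 ± 0.12 at 72 hpf (adjusted p = 1.44e-06). sgk1, the serum- and glucocorticoid-regulated kinase that acts on ion transporters, rose by 0.57 ± 0.06 (adjusted p = 5.40e-04) and 1.39 ± 0.06 (adjusted p = 2.07e-06). igf2a, an insulin-like growth factor, rose by 0.99 ± 0.08 (adjusted p = 9.30e-05) and 0.63 ± 0.08 (adjusted p = 8.13e-04, and 0.0549 within the slide). oxt, the gene of the oxytocin-type hormone, was called at 24 hpf but was not well above background on any of the 6 arrays, so it has no fold, and within the slide its adjusted p was 0.294.

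Of the 21 keratinocyte genes, 8 were called higher and 3 lower at 24 hpf, and 4 higher and 1 lower at 72 hpf. The shares over all features, which also stand beside the kidney counts, were 9.05% higher and 2551 of 25166 lower at 24 hpf, and 4.80% and 5.44% at 72 hpf. The keratin gene krt17 rose by 1.07 ± 0.14 and the annexin gene anxa1b by 0.90 at 24 hpf, evpla (envoplakin) fell by 1.25 ± 0.14 at 24 hpf, and ppl (periplakin) rose by 0.87 ± 0.13 at 72 hpf, all log2. Of the 19 pronephros genes, 7 were called higher and 0 lower by limma at 24 hpf (0 at an unadjusted p below 0.05), and 1 higher and 1 lower at 72 hpf. The 7 include stc1, which is also on the calcium list. As drawn up, the pronephros list also shares clcnk, slc12a1 and slc12a3 with the chloride list and gata3 with the regulator list. The phosphate transporter gene slc20a1a rose by 1.80 ± 0.20 and 1.81 ± 0.20 at the 2 stages, hnf1ba, a kidney transcription factor, rose by 0.85 at 24 hpf with probes between -0.45 and 0.96, and wt1b, another, was called higher at 0.63 with probes between -1.98 and 0.63. Within slides the adjusted p was 0.0753 for wt1b at 24 hpf and 0.103 for ppl at 72 hpf.

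The treatment effect itself differed between the stages for 4 of the 9 genes, where 6.30% of all features were called. The effect on rhcga was larger at 72 hpf by 4.97 ± 0.65 on the log2 scale (adjusted p = 0.00379). The effects on atp1a1a.3 and foxi3a were larger at 24 hpf: the change at 72 hpf minus that at 24 hpf was -1.12 ± 0.20 (adjusted p = 0.0130) and -1.08 ± 0.21 (adjusted p = 0.0191, and 0.0563 with replicates of the same number paired). For pth1a the difference was -1.22 ± 0.26 (adjusted p = 0.0265) and rests on 72 hpf signals below background, and it turned to 0.26 with normexp. In a fit with slide as a block, which leaves 1 array on one side of each treatment comparison, these differences were 3.41 (adjusted p = 0.102), -1.19 (adjusted p = 0.170), -1.29 (adjusted p = 0.158) and -1.64 (adjusted p = 0.0806), so 0 of the 4 calls held in limma (5 of the 9 genes had an unadjusted p below 0.05). With quantile normalization the rhcga difference was 3.84 (adjusted p = 0.110) and that of pth1a -0.76 (adjusted p = 0.0792), and with normexp that of atp1a1a.3 was -0.49 (adjusted p = 0.0546) and that of foxi3a -0.26 (adjusted p = 0.360). For ca15a the difference was -0.93 and did not pass the test (adjusted p = 0.0695). The foxi3a call was lost without beclomethasone replicate 1 or 2 of either stage, with adjusted p of 0.0511 to 0.0551, and the pth1a call without any treated array of 24 hpf, DMSO replicate 2 of 72 hpf, or treated replicate 1 or 2 of 72 hpf (0.0526 to 0.0734).

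Between 24 and 72 hpf, most of these genes were higher in the older embryos with either agent. Within each agent no slide held arrays of both stages, so stage and slide cannot be told apart in these comparisons. The slide block fit links the stages only through arrays of the other agent. In DMSO, 6 of the 9 were called higher and 1 lower at 72 hpf, where 29.2% of all features were called higher and 36.6% lower. In beclomethasone, 8 were called higher and 1 lower, beside 33.8% and 33.7%. These calls include slc12a10.2 and pth1a, which entered the test only through arrays of the stage where each is high. The median log2 difference of the 9 was 1.68 in DMSO and 1.49 in beclomethasone, against -0.10 and 0.07 over all features, and the median over all features in DMSO was -0.43 with median centring and -0.32 with normexp. atp1a1a.3 rose by 3.69 ± 0.14 on the log2 scale in DMSO (adjusted p = 1.77e-08), 12.9-fold, and by 2.57 ± 0.14 in beclomethasone (adjusted p = 1.71e-07). The rise of trpv6 in DMSO, from arrays that did not measure it at 24 hpf, was at least 7.53-fold (adjusted p = 1.37e-04), where such a bound sets the measured group's mean against each other array's lowest signal well above background, or the gene's own signal where that is higher, and in beclomethasone it was 3.98 ± 0.60 (adjusted p = 2.17e-04). rhcga rose 64.5-fold in beclomethasone, 6.01 ± 0.46 (adjusted p = 1.85e-06), while its log2 difference of 1.04 ± 0.46 in DMSO did not pass the test (adjusted p = 0.0723).

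foxi3a and gcm2 both rose with age. foxi3a was higher at 72 hpf by 1.94 ± 0.15 in DMSO (adjusted p = 1.79e-06) and by 0.86 ± 0.15 in beclomethasone (adjusted p = 5.82e-04, or 0.0522 in the slide block fit), and gcm2 by 1.81 ± 0.18 (adjusted p = 1.17e-05) and 1.49 ± 0.18 (adjusted p = 5.09e-05), all log2. Of the carbonic anhydrases, ca15a rose by 1.68 ± 0.19 in DMSO (adjusted p = 2.69e-05) and 0.75 ± 0.19 in beclomethasone (adjusted p = 0.00563, and 0.0579 with median centring). ca2 rose by 0.63 ± 0.09 in DMSO (adjusted p = 1.73e-04), or 0.30 with median centring, and the log2 changes of its dimmer probes were 1.73, 1.17 and -0.01. slc12a10.2 was well above background on every 72 hpf array and on no 24 hpf array, so it entered the test through the older embryos alone and its stage differences are given as a description. It was called in beclomethasone (at least 2.40-fold, adjusted p = 0.0154, or 0.294 in the slide block fit) and not in DMSO (adjusted p = 0.225). In DMSO at 24 hpf, replicate 3 gave slc12a10.2 a floor value of 7.83, against 1.30 and 0.575 on replicates 1 and 2. The DMSO change was 0.27 to 2.15 on the log2 scale without single arrays and was called in 1 of 6 such fits. Its second probe was called in DMSO at 2.12 (limma on every probe by itself, adjusted p = 0.0456). These calls therefore do not set the agents apart. pth1a was the one gene lower at 72 hpf in both agents, called in DMSO (adjusted p = 4.08e-06) on 72 hpf arrays of which 1 of 3 measured it, with no size given. In beclomethasone it was lower by at least 2.90-fold (adjusted p = 1.75e-07). It entered the test through the beclomethasone arrays of 24 hpf alone, so that fall is likewise given as a description. Of the 17 other sodium pump genes, 15 were called higher and 0 lower at 72 hpf in DMSO, beside 29.2% and 36.6% of all features. The 15 include atp1a1a.5, which entered the test through the 72 hpf arrays alone. Its call was kept in 1 of 6 fits without single arrays (limma, adjusted p up to 0.165). The 18 tested genes of the regulator list were mostly lower at 72 hpf, with 4 called higher and 13 lower. Among them foxi1 and foxi2 changed by -1.87 and -0.82 on the log2 scale, both called, and foxi3b was called higher (limma, adjusted p = 0.0316). No DMSO array of 24 hpf had foxi3b well above background, and its rise was at least 1.40-fold. That call was kept in 1 of 6 fits without single arrays (limma, adjusted p up to 0.0994).

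**Figure D5:**
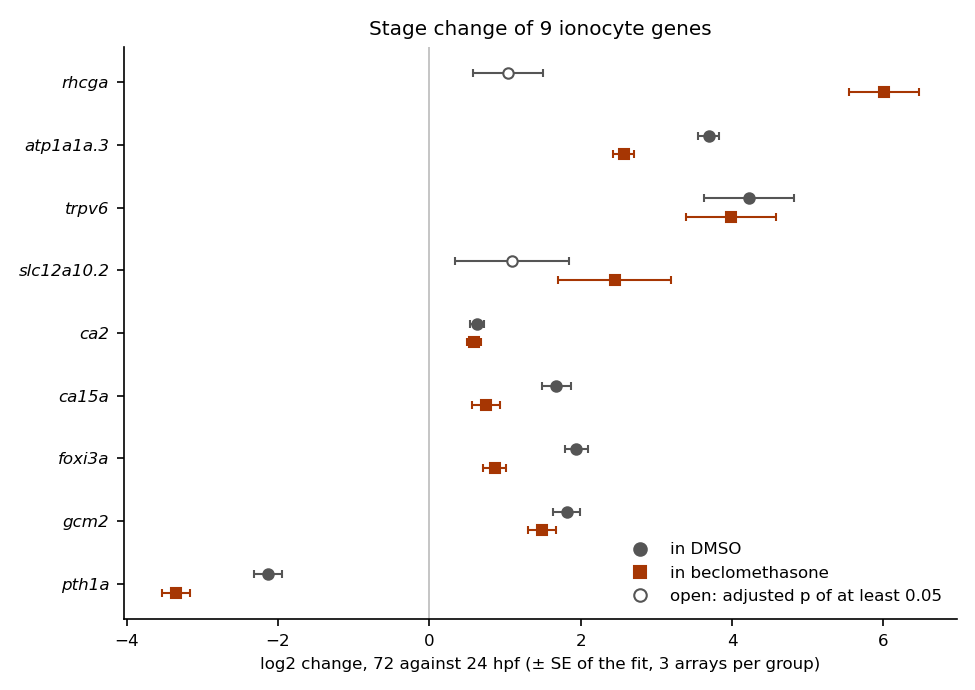
Log2 change (horizontal axis, ± SE of the fit, 3 arrays per group) of the 9 ionocyte genes in embryos of 72 against 24 hpf, in DMSO (circles) and in beclomethasone (squares), filled where the adjusted p is below 0.05. All points except those of pth1a are to the right of 0, and rhcga in beclomethasone stands at 6.01 against 1.04 in DMSO.

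The genes whose pattern over the 12 arrays was nearest to that of each gene were found by the Euclidean distance between log2 values centred on each gene's mean. For foxi3a they were lrrc17, pgm1 and ckba at distances of 0.25, 0.40 and 0.41, against a length of 2.92 for the pattern of foxi3a itself. For atp1a1a.3 they were pvalb4, mb and sh3bgrl2 at 0.85, 1.15 and 1.15 (length 5.84). No gene lay close to rhcga on this measure: ucp3, cyp8b1.3 and cyp8b1.2 were nearest, at 3.73, 3.80 and 4.07 for a length of 8.74. For pth1a the nearest were mcm10, rbm12ba and mcm3 at 1.80, 1.82 and 1.94 (length 5.83), and these values include the arrays on which pth1a was near background.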

How the data were processed

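The authors' scanner files, 1 per sample with nothing pooled, hold spot intensity from array design 026437, read with Agilent Feature Extraction 10.7.1.1, background-subtracted and corrected within each array, per the file headers. The marks for spots well above background, saturated or uneven are other values of that software, per the file headers. A log2 table of the same samples was deposited too. The submitters' processing notes name Agilent Feature Extraction and limma, without versions. The scale of that table is log2 from its values, while its background correction and centring are not given in the sources used here.

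Intensity was put on the log2 scale, less the 75th percentile of non-control spots of its array. Control spots and spots marked as outlying (14 to 79 per array) were left out, and spots of a probe averaged to 43603 probes. Symbols came from the accessions of the RefSeq table of assembly GRCz12tu: 25069 of 26981 probes with such an accession were named, and 18534 probes in all stayed unnamed. Tests covered probes well above background on all 3 arrays of some group. Group means over the 12 arrays were fitted with limma 3.58.1 in R 4.3.3, with eBayes and Benjamini-Hochberg adjustment over 11940 genes and 13226 unnamed probes. The steps were tested on simulated data. The number of arrays limits the precision. The files hold no mean spot signal, so the normexp alternative (offset 50) used the median spot and background signals.

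Besides the 9 genes, the text names up to 4 genes per list called in a treatment comparison with the largest change, the paralogues on the array, and the 3 nearest patterns of 4 genes. Members and lists were chosen with earlier results of these data known. Each slide was scanned together, so slide and scan are the same batch here. Same-numbered arrays of 72 hpf deviated together (correlations of 0.533, 0.508 and 0.498), so the numbers pair them there, and those of 24 hpf did not (-0.0898, 0.0639 and -0.0465).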

Additional observations from a re-analysis of the deposited data

Results flagged for a closer look

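Several effects of beclomethasone differed between the stages by limma's test of the difference, given as the log2 change at 72 hpf minus that at 24 hpf. Among the ionocyte genes the difference was 4.97 for rhcga, -1.12 for atp1a1a.3, -1.08 for foxi3a and -1.22 for pth1a. In the sodium pump and proton pump lists it was -0.70 for atp1a1a.4, -0.92 for atp1a1a.2, -0.99 for atp6v0a1b and -0.52 for atp6v0a1a. Other transport and regulator genes gave 0.75 for aqp3a, 1.55 for hif1al, 1.17 for esrra and -0.82 for pth1b. The aqp3a value is that of its brighter probe, and its 2 probes differed at 24 hpf, with log2 changes of -0.10 and 0.71. The hormone-related genes hsd11b2 and sgk1 gave -0.80 and 0.81. The keratinocyte genes gave 1.66 for evpla, -1.03 for krt17, -1.08 for anxa1b and 0.77 for ppl. The pronephros genes gave -0.94 for hnf1ba and -0.86 for wt1b. Without single arrays, the call was kept in 2 of 12 fits for pth1b, 3 for esrra and ppl, and 4 for atp6v0a1a. It was kept in 6 to 11 for atp1a1a.2, anxa1b, atp6v0a1b, hsd11b2 and krt17. All 12 fits kept it for atp1a1a.4, aqp3a, hif1al, sgk1, evpla, hnf1ba and wt1b. With slide as a block, 0 of the 4 ionocyte genes and 1 of the 16 others kept the call.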

How the results depend on the processing

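The 3 calls at 24 hpf were kept under every alternative that tested these genes with the scanner arrays, leaving out each array included. At 72 hpf the calls of rhcga and pth1a were kept likewise, and that of atp1a1a.3 was not. The number of the 9 genes with an effect that differed between stages, 4 here, was 1 with normexp, 2 with quantile normalization, 0 with slide as a fixed block (5 at an unadjusted p below 0.05), 2 with the deposited table as labelled and 2 with its columns joined to the arrays they match. Without single arrays it was 2 to 4, and the other counts were 3 to 4 at 24 hpf, 2 to 3 at 72 hpf, 7 to 8 for stage in DMSO and 9 to 9 in beclomethasone. With the replicate block, 3, 2 and 3 genes were called at 24 hpf, at 72 hpf and for the difference, with adjusted p = 0.0692 for atp1a1a.3 at 72 hpf and 0.0563 for foxi3a in the difference. Among the list genes named here the block also ended the calls of the difference for atp1a1a.2 (0.0587), atp6v0a1a (0.0645), esrra (0.0697), krt17 (0.0709), anxa1b (0.0707) and pth1b (0.103). A filter on all 12 arrays left ca2 alone, and a fit on only the arrays compared could not be used for the difference.

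As labelled, the deposited table turned the sign: at 24 hpf atp1a1a.3 -1.73, foxi3a -0.81, trpv6 -0.69 and pth1a 0.62, at 72 hpf rhcga -4.81, atp1a1a.3 -0.49 and pth1a 0.93, and in the difference rhcga -4.37, atp1a1a.3 1.24, foxi3a 0.66 and pth1a 0.31. With slide as a block, 13 of 27 treatment calls of the list genes named here were lost at 24 hpf and 6 of 15 at 72 hpf. A fit on only the arrays compared lost 10 of the 27 at 24 hpf and 1 of the 15 at 72 hpf. The deposited table as labelled also turned all 27, 15 and 16 calls of the list genes named here. The difference of pth1a turned to 0.26 with normexp, pth2ra at 24 hpf to 0.076 with quantile normalization, and wt1b to -0.67 at 24 hpf and 0.44 in the difference with the median over probes. The cause was not tested. Counts over all features moved by over 1.5 times under several alternatives, and the ranges given without single arrays also hold smaller moves. At 24 hpf, 4829 calls became 9625 with normexp (2262 higher, 7363 lower), 8322 with array weights, 7939 with every probe by itself, 1311 on only the 24 hpf arrays, 891 with slide as a block and 2199 and 2976 without beclomethasone replicate 2 or 1. At 72 hpf, 2578 became 4381 with array weights, 739 with slide as a block and 1506 to 1871 without single arrays other than DMSO replicate 3. For the difference, 1586 became 6046 with normexp, 4561 with array weights, 4113 with slide as a random block, 2800 with every probe by itself, 2407 with the filter on all 12 arrays, 1013 with no filter, 826 with the replicate block, 68 with slide as a block and 653 to 3075 without single arrays. The split at 24 hpf, 2278 higher and 2551 lower, was 1837 and 4150 with median centring. That of the difference, 645 and 941, was 1012 and 859 with median centring and 4396 and 1650 with normexp. The stage split in DMSO, 7361 and 9204, was 5417 and 12071 with median centring and 6451 and 13459 with normexp, and in beclomethasone 8517 and 8471 became 6444 and 10916 with median centring. Background sets the limit for slc12a10.2, trpv6 and pth1a, each not measured in at least 1 group.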
